A study of Drosophila melanogaster with 3 samples.

Results

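Genes for 10 antimicrobial and other infection-induced peptides of Drosophila melanogaster were compared between kep1 mutant and wild-type males on 3 spotted cDNA arrays read in 2 colours. The genes were Drs, Drsl5, AttA, CecC, Dro, DptA, Mtk, BomS1, BomS2 and BomBc1. They were found by matching the CG number of each listed gene to the probe names of the scanner tables, a lookup that uses no measured value. The list itself was chosen with earlier results of these data known. Each gene had 1 probe, printed as a pair of spots, so the genes make up 10 of 11744 probes and 10 of 9187 genes with a symbol. Channel 2 (Cy5) held RNA of homozygous kep1-/kep1- males and channel 1 (Cy3) held RNA of wild-type w1118 males. The design text gives heads of males aged 3 to 4 days and 3 independent RNA samples, and the labels name no infection or other treatment. The kep1 allele and its genetic background are not given in the sources used here, and the dye was never swapped, so a genotype difference cannot be told apart from a dye effect of a probe or from other strain differences. By the design text these are RNA levels of whole heads, while the source labels say only male RNA. Fewer cells of a type and less RNA per cell cannot be told apart in such samples.

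Insects without antibodies rely in part on short secreted peptides, which the fat body releases into the blood after infection and which some epithelia also make. In Drosophila the Toll pathway, in which the cleaved ligand Spz binds the receptor Tl and frees the factors Dif and dl from cact, is known for its response to fungi and to many Gram-positive bacteria. The Imd pathway, in which recognition of bacterial cell wall leads through imd and the caspase Dredd to cleavage of the factor Rel, is known for its response to Gram-negative bacteria. Drs (drosomycin), an antifungal peptide, and the Bomanin peptides BomS1, BomS2 and BomBc1 are taken here as Toll-type. Mtk (metchnikowin), an antifungal and antibacterial peptide that responds to both pathways, was also placed there. AttA (an attacin), CecC (a cecropin), Dro (drosocin) and DptA (a diptericin) act against bacteria and are taken as Imd-type, and the drosomycin relative Drsl5 was placed in neither class.

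Ratios below are log2 of mutant over wild type after background correction and loess normalization within each array, given as mean ± SD over n = 3 arrays. The adjusted p-values are two-sided, from limma with Benjamini-Hochberg adjustment over 11733 tested probes and a threshold of 0.05. The kep1 probe itself (listed as qkr58E-3) was at -1.59, -1.35 and -2.13 on arrays 1, 2 and 3 (limma adjusted p = 0.0726), lower in the mutant channel on each array. All 10 photoreceptor genes looked up as a check of head tissue, a list chosen after the data were seen, were brighter than 95% of blank spots in both channels of every array. This check cannot tell heads from whole flies. Over all tested probes, Pearson's r between arrays was 0.41 to 0.691, lowest between arrays 1 and 2, where probes are not independent replicates.

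Only Drs and Drsl5 gave signal well apart from blank spots throughout. Blank spots, which carry no DNA or buffer alone, had 95th percentiles of foreground intensity of 310.2, 128.6 and 306.1 in the mutant channel and 343.4, 113.2 and 444.5 in the wild-type channel of arrays 1, 2 and 3. Drs and Drsl5 exceeded that level in all 6 channel readings, as did 27.2% of all probes. The other 8 genes exceeded it in 12 of 48 readings, with 3 of these on array 1, 9 on array 2 and 0 on array 3. Array 2 also had the most readings over the level among all probes. There 71.5% of probes exceeded it in the mutant channel and 80.2% in the wild-type channel, beside 3 and 6 of the 8 genes. On array 1 the shares of all probes were 45.1% in the mutant channel and 41.9% in the wild-type channel, and on array 3 they were 40.0% and 31.9%. A ratio between readings at the level of blank spots says little about the transcript, and the offset of the background correction pulls such ratios towards 0. Of the 10 genes, 7 were printed from clones of the RH series, of which 1 (BomS1) exceeded the blank level in at least 1 channel on at least 2 arrays. Of all 930 RH probes on the arrays, 55.4% did so.

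**Figure D1:**
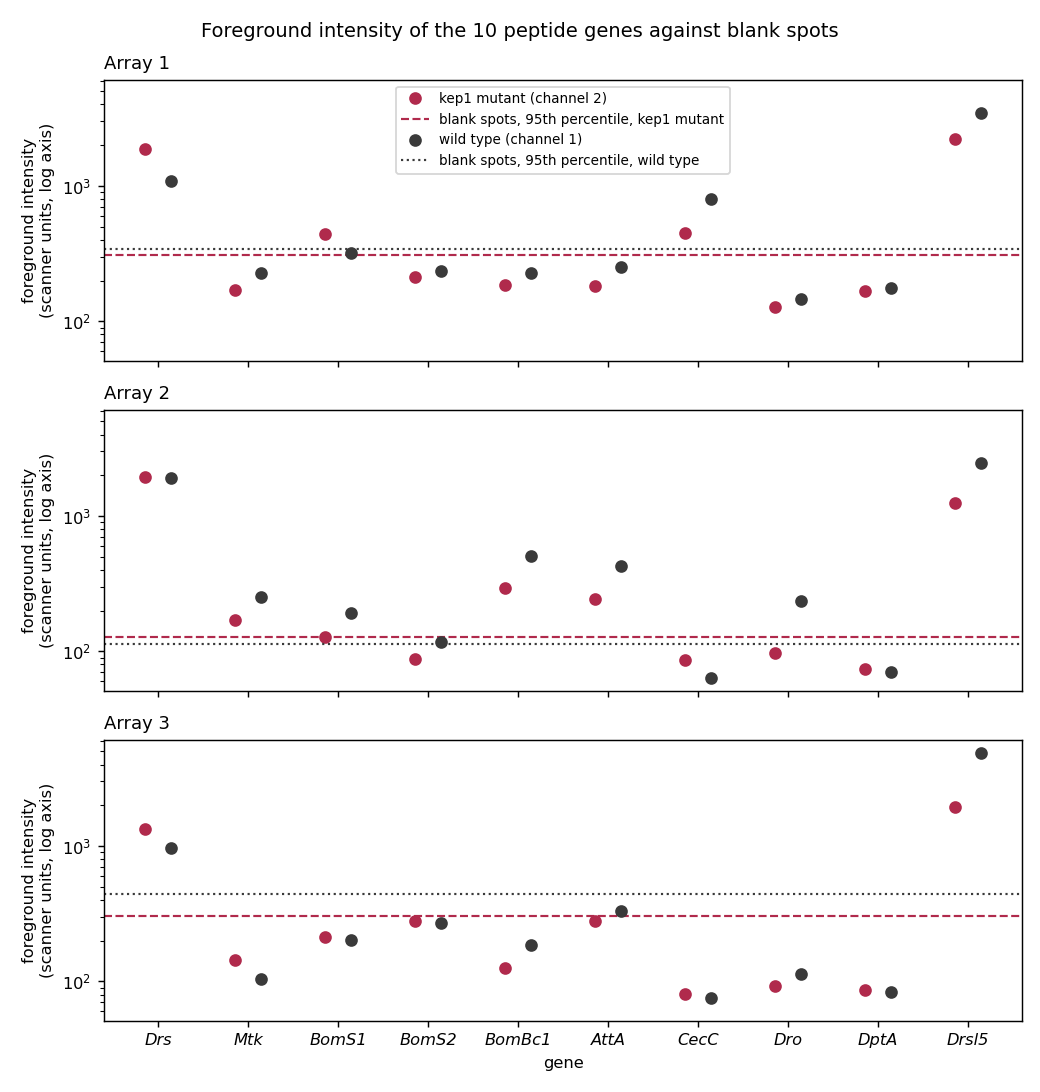
Foreground intensity (scanner units, log axis) of the 10 genes on each array, with kep1 mutant points left of wild-type points and dashed or dotted lines at the 95th percentile of the blank spots of each channel. Drs and Drsl5 lie above the lines on all 3 arrays, while the other 8 genes lie above them in 3, 9 and 0 of 16 readings on arrays 1, 2 and 3.

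None of the 10 genes passed the threshold over all probes, where 0.145% of probes were called. With the adjusted threshold relaxed to 0.1, 1 of the 10 passed (Drsl5), where 2.12% of probes did. Before adjustment, 2 of the 10 had a p under 0.05, as did 15.5% of all probes. Of these 2, Drs was higher, as were 6.24% of probes, and Drsl5 was lower, as were 9.25%. The arrays shared 1 sign for 3 of the 10 genes and for 39% of all probes. Drs was the 1 gene above 0 throughout (18.4% of probes), and Drsl5 and AttA were the 2 below 0 throughout (20.6%). The median over the 10 genes was -0.11, beside a median of -0.0027 over all probes. These counts lie near their backgrounds and give no result about the 10 genes as a group.

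**Figure D2:**
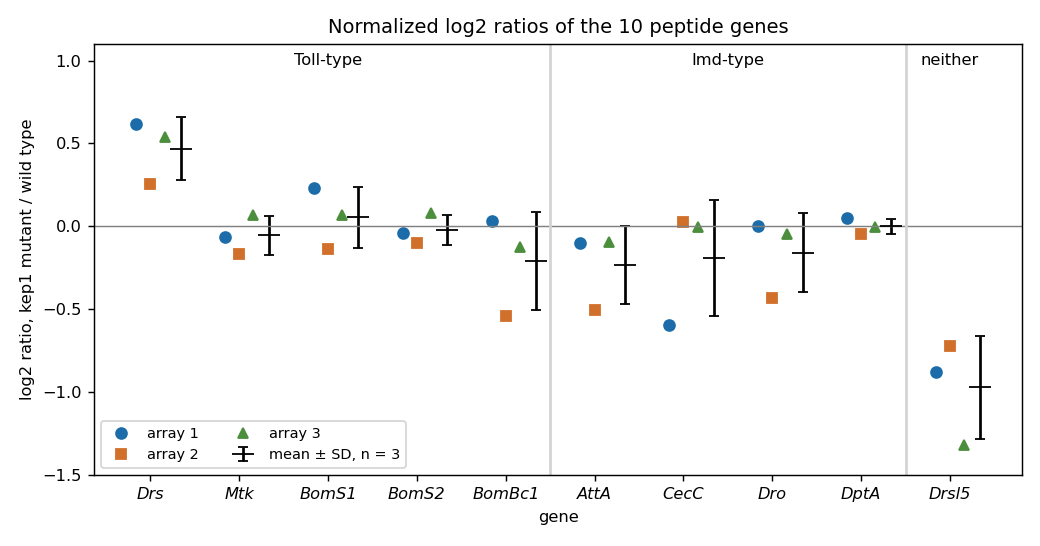
Normalized log2 ratio (kep1 mutant over wild type) of each gene on each array, with the mean and SD of n = 3 arrays beside the points. Drs lies above 0 and Drsl5 below 0 on every array, and AttA, Dro and BomBc1 have their lowest ratios on array 2.

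Drsl5 had the largest ratio of the 10 genes. Its foreground intensities were 2208, 1255 and 1954 in the mutant channel and 3440, 2445 and 4904 in the wild-type channel of arrays 1, 2 and 3. The mutant range lay wholly below the wild-type range, which held for no other of the 10 genes and in that direction for 4.65% of all probes. After normalization the log2 ratios were -0.88, -0.72 and -1.32. The mean was -0.97 ± 0.31 (SD, n = 3), or 1.96-fold lower in the mutant, with a 95% interval of -1.33 to -0.62 from limma. It did not pass over all probes (limma adjusted p = 0.0953, unadjusted p = 0.0013), although 155 of the 11733 probes had a smaller p. Its duplicate spots differed by 0.21, 0.23 and 0.06 on the log2 scale, less than the ratio itself on each array.

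The Drsl5 call depended on the processing while its direction did not. Its ratio was below 0 under all 13 other settings, from -1.10 to -0.80. It passed in limma without background correction (adjusted p = 0.0158, where 3.7% of probes were called), with plain subtraction (adjusted p = 0.0197, 3.32%) and when the deposited log2 values replaced the corrected ones (adjusted p = 0.0231, 3.61%). It also passed with an intensity trend and robust variances (adjusted p = 0.0166, 2.39%) and when probes at the blank level were left out of the test (adjusted p = 0.0167, 5.89%), the last chosen after seeing the data. With 1 array left out, 0% of probes passed without array 1 or array 3 and 0.852% passed without array 2. Drsl5 was not among those calls (limma adjusted p = 0.0847), and its failure without array 1 (0.341) or array 3 (0.219) says nothing of its stability. A list of gut markers was lower on the same arrays. All 12 measured of 20 listed gut genes were below 0 on every array, as were 20.6% of all probes. The list medians were -1.42, -0.78 and -1.35 on arrays 1, 2 and 3. The amylase genes Amy-d (-2.02 ± 0.15, adjusted p = 0.0287) and Amy-p (-1.90 ± 0.27, adjusted p = 0.0353) were the 2 that passed in limma, where 0.145% of all probes did. The protease gene Jon65Aiii was at -2.19 ± 0.61 (limma adjusted p = 0.0858). The summed foreground of the list was 10497 to 19619 in the mutant channel and 27369 to 42390 in the wild-type channel. No measured gene of the list was at 0, and 6 of the 12 exceeded the blank level in all 6 readings. The part of gut RNA in the Drsl5 result was not tested.

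Drs was higher in the mutant channel on each array but did not pass. Its foreground intensities were 1873, 1943 and 1339 in the mutant channel and 1081, 1896 and 960 in the wild-type channel. The ranges overlapped, and on array 2 the raw readings were nearly equal, with a log2 ratio of foregrounds of 0.04 that became 0.25 after loess. The normalized ratios were 0.61, 0.25 and 0.54 on arrays 1, 2 and 3. The mean of 0.47 ± 0.19 (SD, n = 3), or 1.38-fold, had a 95% interval of 0.23 to 0.71 (limma adjusted p = 0.131, unadjusted p = 0.0051). Under the 13 other settings the ratio stayed between 0.40 and 0.58 and the limma adjusted p between 0.066 and 0.416.

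Fat body markers lay mostly on the same side of 0 as Drs. Of 14 measured of 16 listed genes, 8 were above 0 on all arrays, 0 were below 0 on all arrays and 6 had mixed signs. Over all probes 18.4% were above 0 and 20.6% below 0 on all arrays. The list medians were 0.32, 0.52 and 0.14 on arrays 1, 2 and 3. The summed foreground of these markers was 13176 to 23228 in the mutant channel and 10464 to 14817 in the wild-type channel. None was at 0, and 6 of the 14 exceeded the blank level in all 6 readings. The storage protein gene Lsp2 (2.72 ± 0.97) and the female-enriched genes fit (1.47 ± 1.33) and Yp3 (1.27 ± 0.98) had the largest means, none past the threshold in limma. The means of 10 genes were above 0 and those of 4 (Yp1, Yp2, Lpin and Hex-C) below 0. Of these 4, which were singled out once their values were known, Yp1 (a yolk protein) was at -2.54, 2.96 and -0.78 on arrays 1, 2 and 3. The list median was highest on array 2, where Drs was lowest. By array, the summed foreground was 20458, 23228 and 13176 in the mutant channel and 10464, 14817 and 11202 in the wild-type channel. These sums, which were not normalized, lay furthest apart on array 1, where Drs was highest (0.61). They lay closest on array 3, where Drs was at 0.54. The part of fat body RNA in the Drs ratio was not tested.

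**Figure D3:**
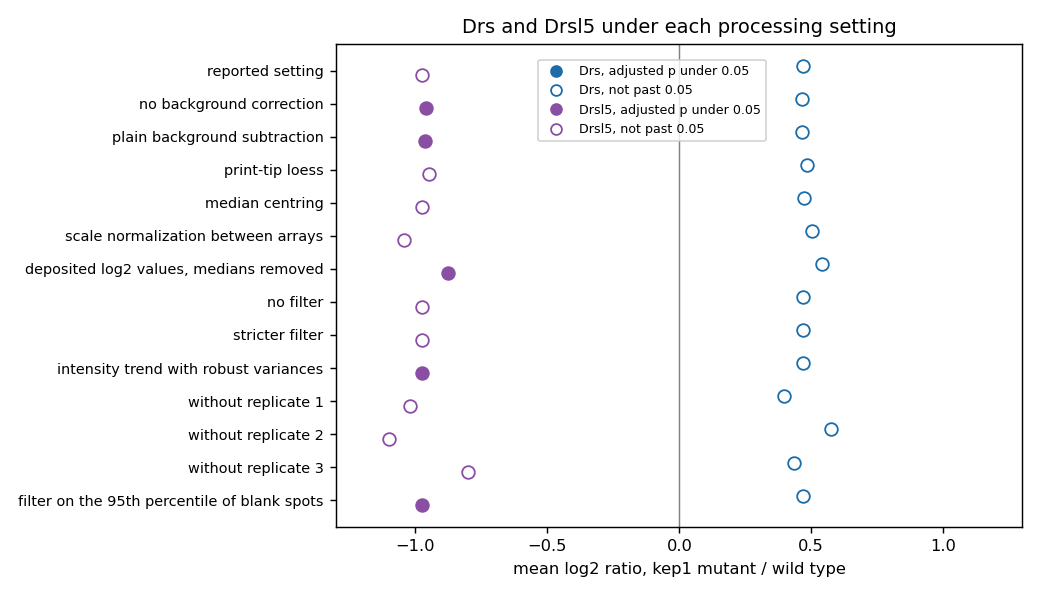
Mean log2 ratio (kep1 mutant over wild type) of Drs and Drsl5 under the reported setting and 13 others, with filled points for an adjusted p under 0.05. Drs stays between 0.40 and 0.58 without passing, and Drsl5 stays between -1.10 and -0.80 and passes under 5 settings.

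Drs and Drsl5, which lie in the same gene cluster region on chromosome arm 3L and are named as relatives, had ratios of opposite sign. The difference of their log2 ratios, Drs minus Drsl5, was 1.49, 0.97 and 1.86 on arrays 1, 2 and 3, a mean of 1.44 ± 0.44 (SD, n = 3). It was positive on each array and was not tested, since the genes were chosen with earlier results known.

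Among the Imd-type genes no ratio passed and every mean was below 0, each by less than its SD. AttA had foregrounds of 181.9, 242 and 279.2 in the mutant channel and 250.2, 429.3 and 329.2 in the wild-type channel, above the blank level in both channels of array 2 alone. Its log2 ratios were -0.10, -0.50 and -0.10, a mean of -0.23 ± 0.23 (limma adjusted p = 0.397). Dro, the neighbour of AttA on chromosome arm 2R, had foregrounds of 127, 97.4 and 92.7 in the mutant channel and 145.6, 237 and 113.9 in the wild-type channel. Of these only the wild-type reading of array 2 exceeded the blank level. Its log2 ratios were 0.0011, -0.43 and -0.04, a mean of -0.16 ± 0.24 (limma adjusted p = 0.576). Both means rest on array 2, without which they were -0.10 for AttA and -0.02 for Dro.

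CecC rested on a single spot. On array 1 its second spot read 770.7 in the mutant channel and 1410 in the wild-type channel, while its first spot read 124 and 181.5. All other CecC spots, on arrays 2 and 3, lay below the blank level. The ratios of those 2 spots on array 1 were -1.17 and -0.02, apart by 1.15, where the 95th percentile of this difference over all probes was 0.386. The array ratios were -0.59, 0.03 and -0.0038, a mean of -0.19 ± 0.35 (limma adjusted p = 0.632), and without array 1 the mean was 0.01. DptA stayed under the blank level in all 6 readings, with foregrounds of 166.2, 74.7 and 86.9 in the mutant channel and 177.7, 70.8 and 84 in the wild-type channel. Its mean of -0.0012 ± 0.05 (95% interval -0.14 to 0.14) was therefore not a measure of diptericin transcript.

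Of the other Toll-type genes, BomS1, BomS2 and Mtk had means within 0.1 of 0, and BomBc1 lay lower. BomS1 was the brightest of them on array 1, with 439.4 in the mutant channel and 322.3 in the wild-type channel. On arrays 2 and 3 it had 127.3 and 212.6 in the mutant channel and 191.3 and 201.5 in the wild-type channel. Its ratios of 0.23, -0.14 and 0.07 had no common sign (mean 0.05 ± 0.18, limma adjusted p = 0.832). BomS2, with foregrounds of 87.2 to 279.7 in the mutant channel and 116.5 to 267.9 in the wild-type channel, had a mean of -0.02 ± 0.09 (limma adjusted p = 0.92). Mtk, with 144 to 171.6 in the mutant channel and 104.8 to 253.3 in the wild-type channel, had a mean of -0.06 ± 0.12 (limma adjusted p = 0.773). It exceeded the blank level in both channels of array 2 alone.

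BomBc1, the neighbour of BomS1 in the Bomanin cluster of chromosome arm 2R, had foregrounds of 184.4, 294.9 and 124.6 in the mutant channel and 227, 503.5 and 184.8 in the wild-type channel. Only the array 2 readings exceeded the blank level. Its log2 ratios were 0.03, -0.54 and -0.13, a mean of -0.21 ± 0.30 (limma adjusted p = 0.532), and -0.05 without array 2. The Bomanins, the attacins and the cecropins are families of close relatives, and cDNA probes may bind transcripts of more than 1 member, which leaves each gene's own value uncertain.

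In the normalized ratios, array 2 differed from arrays 1 and 3 in these weaker genes. Leaving aside Drs and Drsl5, 7 of 8 genes were below 0 on array 2 (median -0.15), against 51.6% of all probes on that array. On array 1 this held for 4 of 8 (median -0.02) and 50.6% of probes, and on array 3 for 5 of 8 (median -0.0046) and 50.1% of probes. A cut of -0.4 used to count low ratios was not planned ahead, so these counts give no result about the 8 genes. AttA, Dro and BomBc1, 3 of the 8, were below -0.4 on array 2, as were 7.82% of all probes. On array 1 this held for 1 of the 8, CecC at -0.59, and 5.97% of probes, and on array 3 for 0 of the 8 and 6.42% of probes. The 3 genes of array 2 were drawn from both classes. Before correction and centring, the log2 ratios of foregrounds on arrays 1, 2 and 3 were -0.46, -0.83 and -0.24 for AttA. They were -0.20, -1.28 and -0.30 for Dro and -0.30, -0.77 and -0.57 for BomBc1, which was thus low on array 3 too. The offset pulls ratios of dim spots towards 0, and 9 of the 12 readings over the blank level were on array 2. The size of the contrast between arrays therefore depends on the processing. Hemocyte markers, 10 measured of 14 listed, also had their lowest median on array 2, at -0.21, against 0.04 on array 1 and 0.03 on array 3. Their summed foreground was 3949 to 4880 in the mutant channel and 3916 to 6317 in the wild-type channel, with none at 0. Only 1 of the 10, crq, exceeded the blank level in all 6 readings. A total of 5 exceeded it in at least 1 channel on at least 2 arrays, so the list median rests in part on readings at the blank level. On array 2, 7 of the 10 were below 0. Col4a1, a basement membrane collagen, was at -1.02 there, with -0.12 and 0.09 on arrays 1 and 3, but its dimmer probe was at -0.03 on array 2. The prophenoloxidase gene PPO2 had a mean of -0.10 ± 0.19 and the phagocytosis receptor gene NimC1 a mean of 0.08 ± 0.09 (-0.0039 ± 0.24 on a dimmer probe), none past the threshold in limma. Blank spots of array 2 had a median foreground of 65.2 in the mutant channel and 0 in the wild-type channel. On array 1 these medians were 136.9 and 173.1, and on array 3 they were 114.2 and 116.5. The parts of blood cell RNA and of this channel difference in the peptide values of array 2 were not tested.

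The Toll-type median lay above the Imd-type median on each array, by less than either median varied between arrays. The median log2 ratio of the 5 Toll-type genes was 0.03, -0.14 and 0.07 on arrays 1, 2 and 3, a mean of -0.01 ± 0.11 (SD, n = 3). That of the 4 Imd-type genes was -0.05, -0.24 and -0.03, a mean of -0.11 ± 0.12. Both classes were lowest on array 2. Toll-type minus Imd-type was 0.08, 0.10 and 0.10, a mean of 0.09 ± 0.0091, positive on each array. Without Drs the Toll-type median was -0.0025, -0.15 and 0.07, and the difference was 0.05, 0.09 and 0.09 (mean 0.08 ± 0.02). No p is given, since the members were chosen with earlier results known and none of the 4 Imd-type genes exceeded the blank level on more than 1 array. The close values of the difference therefore compare readings that lay mostly within the range of blank spots.

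Other induced peptide genes, from the Bomanin family and from families outside the 10, also did not pass. Of 41 listed genes 12 were measured and 0 passed in limma, where 0.145% of all probes did. Before adjustment 1 had a p under 0.05 and was lower, beside 15.5% of all probes and 9.25% lower. The median of the 12 was 0.0083. BomBc2 of the Bomanin cluster had the lowest adjusted p of the 12, with ratios of -0.27, -0.27 and -0.32 and a mean of -0.29 ± 0.03 (limma adjusted p = 0.113). Its foreground exceeded the blank level in all 6 readings. A dimmer BomBc2 probe, however, was at 0.14 ± 0.09, with the opposite sign on every array, so the gene has no settled direction here. The Bomanins with a tail, BomT3 (0.16 ± 0.10) and BomT2 (0.12 ± 0.04), were above 0 on all arrays. BaraA2, a precursor of immune-induced peptides, was at -0.10 ± 0.05, BomBc3 at -0.08 ± 0.01 and the stress peptide gene TotF at 0.07 ± 0.04. BomBc3 and TotF exceeded the blank level in 0 of 6 readings and BaraA2 in 2 of 6. The small SDs of these 3 genes therefore do not show a precise measure of transcript.

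**Figure D4:**
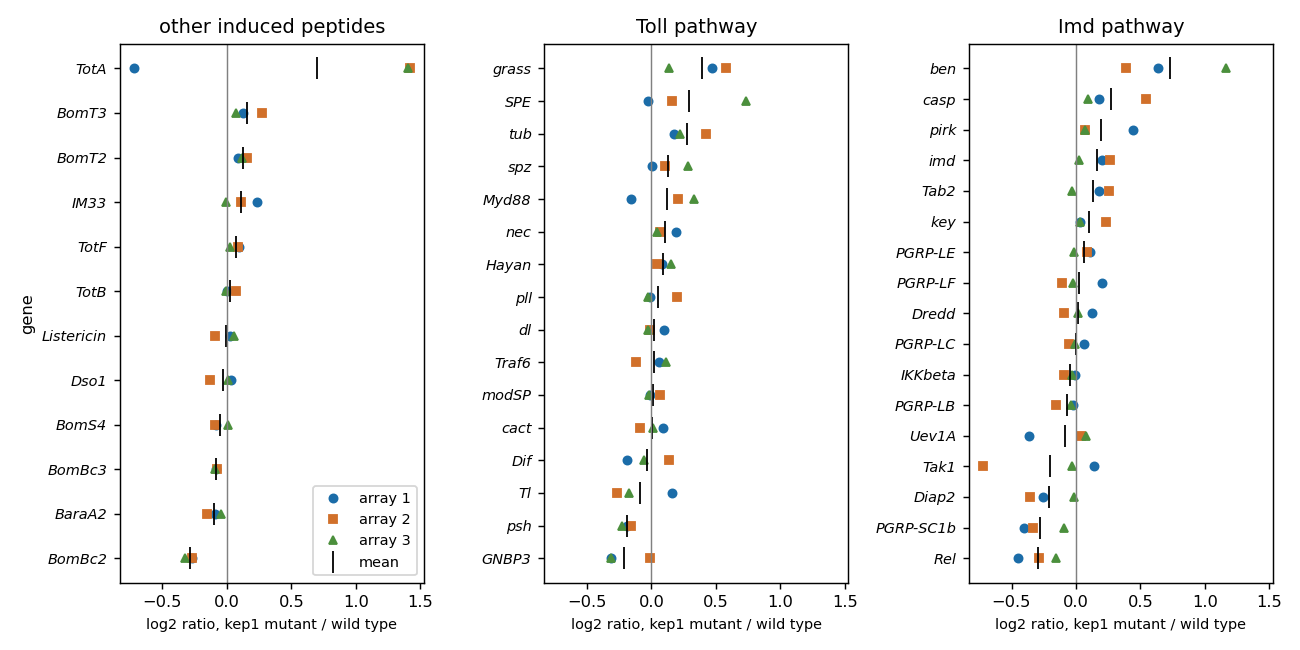
Log2 ratios (kep1 mutant over wild type) on each array, with the mean as a bar, of the measured genes of the other induced peptides (12), the Toll pathway (16) and the Imd pathway (17), 1 brightest probe per gene. No gene passed the threshold, and TotA has the widest spread between arrays.

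The genes that carry the Toll signal did not pass either. Of 16 measured of 19 listed, 0 were called in limma, where 0.145% of all probes were. Before adjustment 3 had a p under 0.05, beside 15.5% of all probes. Of these 3, 2 were higher (6.24% of all probes) and 1 was lower (9.25%). The median was 0.04. The protease gene grass, which acts upstream of Spz, was at 0.39 ± 0.23 and the adaptor gene tub at 0.27 ± 0.13. The fungal recognition gene GNBP3 was at -0.21 ± 0.17 and the protease gene psh at -0.19 ± 0.04. The ligand gene spz was at 0.13 ± 0.14, the receptor gene Tl at -0.09 ± 0.22 (0.03 ± 0.09 on a dimmer probe) and the inhibitor gene cact at 0.0034 ± 0.09. The factors Dif and dl were at -0.04 ± 0.16 and 0.02 ± 0.06. Dif exceeded the blank level in all 6 readings and dl in only 2 of 6. The limma adjusted p was at least 0.197 for each of the 16 genes.

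Imd pathway genes also did not pass, but fewer of them gave signal over the blank level. Of 17 measured of 20 listed, 0 were called in limma, where 0.145% of all probes were. The blank level was exceeded in at least 1 channel on at least 2 arrays by 8 of the 17. This held for 12 of the 16 Toll pathway genes and 51.7% of all probes. Before adjustment 3 had a p under 0.05, beside 15.5% of all probes. Of these 3, 1 was higher (6.24% of all probes) and 2 were lower (9.25%). The median was 0.02. The ubiquitin-conjugating enzyme gene ben, which acts in this pathway with Uev1A, was at 0.64, 0.39 and 1.16, a mean of 0.73 ± 0.40 (limma adjusted p = 0.16). Rel, the factor cleaved on signalling, was at -0.45, -0.28 and -0.16, a mean of -0.30 ± 0.15 (limma adjusted p = 0.19). PGRP-SC1b, an enzyme that degrades peptidoglycan, was at -0.28 ± 0.16 and the ubiquitin ligase gene Diap2 at -0.21 ± 0.17. casp, a negative regulator, was at 0.27 ± 0.24 on its brighter probe and -0.07 ± 0.23 on the other. imd itself was at 0.17 ± 0.12, and Dredd, below the blank level in all 6 readings, at 0.02 ± 0.11. PGRP-SC1b and imd each exceeded the blank level in only 2 of 6 readings.

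**Figure D5:**
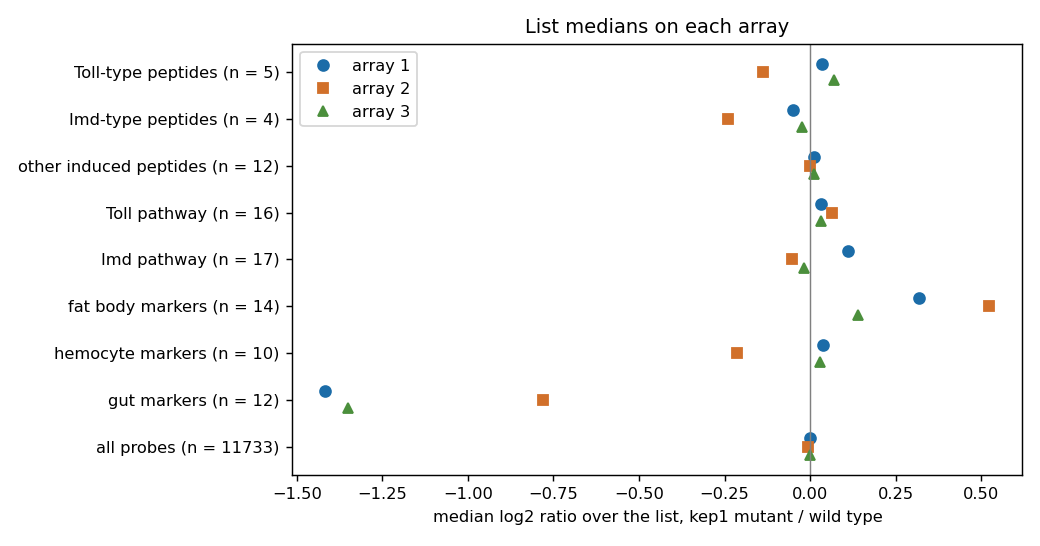
Median log2 ratio (kep1 mutant over wild type) of each gene list on each array, with the number of genes tested. Toll-type and Imd-type peptides have their lowest medians on array 2 (-0.14 and -0.24), and the gut markers lie furthest from 0 on each array.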

How the data were processed

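Per the file headers, the deposited scanner tables hold, for each spot and channel, foreground and local background intensity with the background's SD, linear and not normalized. Image software is not given in the sources used here. The authors' deposited log2 values equalled log2 of channel 2 over channel 1 foreground at all 27648, 24779 and 27616 spots where they were given (tolerance 0.001), with no centring (medians -0.08, -0.20 and -0.04). Of the 27648 spots, 1734 were blank, and spots marked as ignored were dropped. Here intensities were corrected by normexp (offset 50), normalized by loess within arrays, averaged over duplicate spots and tested with limma 3.58.1 (R 4.3.3). A probe was tested if a channel exceeded its background by 2 SDs on at least 2 arrays. Steps were tested on simulated data. Symbols came from the RefSeq table of Release 6 plus ISO1 MT, through CG numbers (565 probes by an older number). No label says whether the 3 RNA samples came from separately reared flies, so p-values cover only the spread of these 3 samples, which may be technical, and the number of arrays limits the precision. Arrays are numbered in record order. The members and lists were chosen with earlier results of these data known. Genes named outside the 10 followed a rule: per list those past the threshold, then the largest means of 1 sign (6 peptides, 5 per pathway), the core pathway genes, and the 3 largest means per marker list. A gene was represented by its brightest probe. Alternatives were other background corrections, normalizations, filters, variance models, thresholds and class assignments, the deposited values, and leaving out each array. The submitters' subtracted and ratio columns in 1 table were not used.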

Additional observations from a re-analysis of the deposited data

How the results depend on the processing

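Drs, Drsl5, AttA, Dro and BomBc1 kept their sign under every setting run, but the dim genes changed in size. Dro was at -0.41 without background correction, -0.43 with subtraction and -0.49 with deposited values, AttA at -0.35, -0.36 and -0.41 and BomBc1 at -0.37, -0.38 and -0.44, none past the threshold in limma. CecC turned to 0.039 with the deposited log2 values. DptA turned to 0.052 without background correction, 0.067 with subtraction, 0.00078 with print-tip loess, 0.059 with median centring, 0.0026 with scaling between arrays and 0.13 with the deposited values. Leaving out each array gave -0.30 to 0.011 for CecC, -0.025 to 0.021 for DptA, -0.12 to 0.0012 for Mtk, -0.033 to 0.15 for BomS1 and -0.069 to 0.020 for BomS2. The cause was not tested, and all 5 were weak signals. With 1 array left out 0 of the 10 genes passed in limma. Of the 10, 1 (Drsl5) passed without background correction, with subtraction, deposited values, the intensity trend or the blank-spot filter, and at a threshold of 0.1, where 2.12% of probes passed. Of the Imd pathway genes, 1 (ben) passed without background correction, with subtraction, deposited values or the blank-spot filter. Over all probes, the 17 calls became 434 without background correction, 390 with subtraction, 70 with median centring, 0 with scaling (1842 at an unadjusted p under 0.05), 423 with deposited values, 35 with the stricter filter, 281 with the intensity trend, 358 with the blank-spot filter and 249 at a threshold of 0.1. Leaving out arrays gave 0 to 100, with 0 without array 1 (1332 at an unadjusted p under 0.05) or array 3 (1194). The calls were 8 higher and 9 lower, against 121 higher and 302 lower with deposited values, 116 and 318 without background correction, 102 and 288 with subtraction, 25 and 45 with median centring and 72 and 209 with the intensity trend. Toll-type minus Imd-type became 0.11 without background correction, 0.18 with subtraction, 0.085 with print-tip loess, 0.052 with median centring, 0.046 with deposited values, 0.11 with Mtk as Imd-type, 0.13 with Mtk in neither class and 0.076 with Drsl5 as Toll-type, and it was positive in each. The pairing of the genotypes on each array was kept in every setting, since the tests used log2 ratios within arrays, which form 1 group. With the stricter filter Mtk and BomBc1 were not tested, and with the blank-spot filter only Drs, Drsl5 and BomS1 were, so no class medians were computed there. Signal near blank spots limits the other 8 genes.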

Other observations

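TotA, a stress-induced secreted peptide of the Turandot family, was named after its values were seen. Its foreground was 676.9, 1153 and 1335 in the mutant channel and 933.8, 464.7 and 525.4 in the wild-type channel of arrays 1, 2 and 3, above the blank level in all 6 readings. Its log2 ratios were -0.72, 1.42 and 1.40, a mean of 0.70 ± 1.23 (limma adjusted p = 0.592), so array 1 ran against arrays 2 and 3. The duplicate spots differed by 0.17, 0.02 and 0.13 on these arrays, far less than the arrays differed from each other.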
